A study of Mus musculus with 6 samples.

Results

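The SMAD1/5 sites of naive and primed mouse pluripotent cells under BMP-4 were compared through 2 peak lists. One list came from E14 embryonic stem cells (ESCs, the naive state) kept in LIF+BMP-4 in a serum-free basal medium. The other came from ESD-EpiSCs, primed epiblast stem cells that had been made from such ESCs, grown with FGF2 and Activin A and then given BMP-4 for 1.5 h. Both received BMP-4 at 10 ng/ml, and no genetic change is named for either. All 14696 ESC peaks were taken, and of the 225 ESD-EpiSC peaks the 193 wider than 80 bp. These 14889 peaks are part of 24441 in the 4 deposited lists of the series, whose other 2 lists are ESCs in LIF+serum (9387 peaks) and ESD-EpiSCs after 24 h of BMP-4 (133 peaks). The widest peak left out measured 80 bp and the narrowest kept 81 bp. With 1 library per condition there were no replicates to test a difference against, and p-values are left out. State, culture medium, length of BMP-4 exposure and library change together between the lists and cannot be told apart. Naive and primed are the labels' terms, and a peak list holds no expression values with which to check them.

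Bone morphogenetic proteins signal through receptors that phosphorylate SMAD1 and SMAD5, which enter the nucleus with SMAD4 and bind DNA beside cell-type-specific factors. The Id genes, which encode inhibitors of basic helix-loop-helix factors, and Smad6 and Smad7, which encode feedback inhibitors, are classical direct targets. In naive ESCs BMP-4 together with LIF supports self-renewal, whereas primed cells depend on FGF and Activin and respond to BMP-4 by differentiating. In ChIP-seq, DNA bound by an antibody's target is sequenced and places with many reads are called as peaks. Each peak carries a score given by the authors' peak caller, and rank 1 is the highest score of a list. Ranks in the ESD-EpiSC list were taken over all its 225 peaks.

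Gene names rest on general knowledge of where genes lie in the mm9 build, and not on an annotation of that build, which was not used here. They are less certain than the peak positions. The recalled places are no finer than 10 kb and can be off by more, up to about the 50 kb window at Stat3, and some were recalled together with positions in another build. The best ESC rank given for a gene can change with its place. With a window of 25 kb it would be 1922 in place of 31 at Sall4, 6539 in place of 584 at Prdm14, 6652 in place of 628 at Lefty1, 9738 in place of 1023 at Klf5 and 13808 in place of 1812 at Bambi. A gene is said to have a peak when the peak lies within 50 kb of the recalled position, and genes whose position was not recalled are not reported. All peak positions are mm9 and 1-based. Which gene a peak acts on is not measured by these data.

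Promoters of 5 genes, the BMP targets Id2 and Id3 with high ESD-EpiSC ranks and the imprinted genes Plagl1, Nap1l5 and Mest with high ESC ranks, from RefSeq are printed to show the sequence at such genes, 250 bases upstream of the annotated start, 5′ to 3′ on the gene's strand. Capitals mark GGCGCC (the GC-rich site that SMAD1 and SMAD5 bind), GTCT (the SMAD box) and TGCCGC (the hexamer that ZFP57, a factor that maintains imprints, binds when methylated), on either strand, so the reverse complements AGAC and GCGGCA appear too. Their positions belong to another build and cannot be set against the mm9 peaks.
Id2, GRCm38.p6 chr12:25096093-25096342, minus strand: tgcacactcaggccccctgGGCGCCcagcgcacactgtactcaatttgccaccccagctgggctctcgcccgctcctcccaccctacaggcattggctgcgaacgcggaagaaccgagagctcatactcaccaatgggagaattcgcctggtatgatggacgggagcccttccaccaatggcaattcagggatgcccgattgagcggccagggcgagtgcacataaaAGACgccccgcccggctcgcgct
Id3, GRCm38.p6 chr4:136143572-136143821, plus strand: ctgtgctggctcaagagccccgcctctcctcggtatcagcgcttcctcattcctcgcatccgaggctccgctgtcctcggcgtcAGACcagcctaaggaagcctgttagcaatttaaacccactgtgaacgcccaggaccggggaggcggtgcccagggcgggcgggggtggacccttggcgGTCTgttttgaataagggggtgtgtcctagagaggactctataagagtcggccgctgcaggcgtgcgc
Plagl1, GRCm38.p6 chr10:13090582-13090831, plus strand: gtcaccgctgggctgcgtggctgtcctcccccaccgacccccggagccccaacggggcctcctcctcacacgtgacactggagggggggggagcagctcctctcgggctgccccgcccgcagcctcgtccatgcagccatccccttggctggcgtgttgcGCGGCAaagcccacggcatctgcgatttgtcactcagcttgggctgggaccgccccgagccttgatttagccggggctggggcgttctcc
Nap1l5, GRCm38.p6 chr6:58907127-58907376, minus strand: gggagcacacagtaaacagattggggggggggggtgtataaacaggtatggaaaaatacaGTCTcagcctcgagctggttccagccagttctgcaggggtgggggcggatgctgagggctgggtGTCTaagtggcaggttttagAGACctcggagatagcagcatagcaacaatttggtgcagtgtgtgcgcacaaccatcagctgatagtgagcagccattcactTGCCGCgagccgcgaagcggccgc
Mest, GRCm38.p6 chr6:30737803-30738052, plus strand: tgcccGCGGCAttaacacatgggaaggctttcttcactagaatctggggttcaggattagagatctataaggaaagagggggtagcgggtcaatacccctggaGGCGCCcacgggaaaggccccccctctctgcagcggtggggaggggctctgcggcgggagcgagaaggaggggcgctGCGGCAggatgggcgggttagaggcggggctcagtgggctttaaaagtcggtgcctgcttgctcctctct
The hexamer GGCGCC occurred once each in the Id2 and Mest windows and not in the other 3, and 9.59% of the 32851 RefSeq promoter windows of this length held it. TGCCGC occurred once in Plagl1, once in Nap1l5 and 2 times in Mest, and in 8.68% of all windows. GTCT was found in Id2, Id3 and Nap1l5 but also in 82.9% of all windows. GC content was 62.8% in Id2 and Id3, 70.4% in Plagl1, 56.8% in Nap1l5 and 62.0% in Mest, beside a median of 52.4% over all windows. For Mest only the last annotated window by position was used, so its counts hold for that start alone. The genes were picked after their peaks were seen, and a match of letters is no evidence of binding. Id1 was sought as well and gave no window, so the BMP targets are covered only in part.

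About 1 in 3 primed-state peaks lay on a naive-state peak, whereas few naive-state peaks had a primed counterpart. Of the 193 ESD-EpiSC peaks, 65 (33.7%, exact binomial 95% interval 27.1 to 40.8) overlapped an ESC LIF+BMP-4 peak by at least 1 bp, and 128 overlapped none. In the other direction 55 of 14696 ESC peaks (0.374%, 0.282 to 0.487) held an ESD-EpiSC peak. The ESC list was 76.1 times as long as the list of ESD-EpiSC peaks kept. The numbers 65 and 55 differ because 7 ESC peaks each held 2 or 3 ESD-EpiSC peaks, 17 in all. Intervals cover counting error over peaks of 1 library only, and neighbouring peaks are not independent. Joining ESD-EpiSC peaks within 5 kb of each other gave 169 sites, of which 54 met an ESC peak.

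The narrow ESD-EpiSC peaks sat well inside the wide ESC peaks. In 60 of the 65 overlapping pairs the ESD-EpiSC peak lay wholly within the ESC peak, and its width was a median of 22.1% of the ESC peak's. The centres lay a median of 80.5 bp apart, with 50 of 65 pairs within 200 bp and the largest offset at 622 bp. Shared ESD-EpiSC peaks had a median width of 156 bp (95% interval of the median 139 to 178), and those without an ESC peak 123 bp (116 to 135). The part of width in the overlap was not tested. The median width was 500 bp for all ESC peaks and 135 bp for the ESD-EpiSC peaks kept.

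With lists of equal length the overlap was much smaller. Among the 193 highest ESC peaks, which all scored at least 363.9, 14 (7.25%, 4.02 to 11.9) held an ESD-EpiSC peak, and 18 of the 193 ESD-EpiSC peaks (9.33%, 5.62 to 14.3) met one of these ESC peaks. With the top 1000 ESC peaks 30 ESD-EpiSC peaks were met (15.5%), with the top 5000 ESC peaks 49 (25.4%) and with the top 10000 ESC peaks 56 (29.0%). The ESC peaks beyond rank 10000 added 9 more. The share thus depends on how far down the ESC list one reads, and 33.7% is a value for the whole list.

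**Figure D1:**
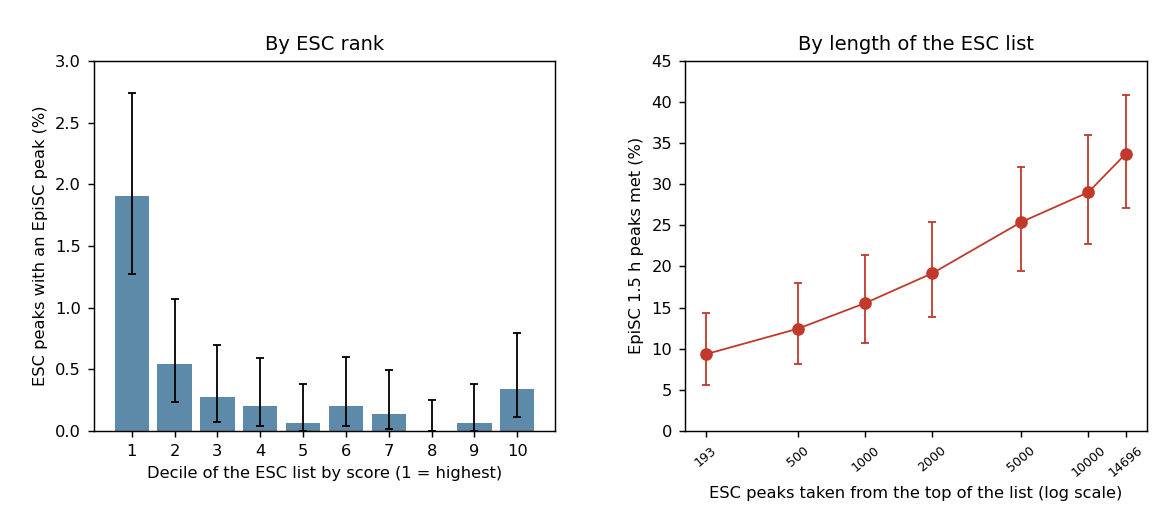
Left, percentage of ESC LIF+BMP-4 peaks that hold an ESD-EpiSC 1.5 h peak, by decile of the ESC list from highest to lowest score. Right, percentage of the 193 ESD-EpiSC peaks met by the top of the ESC list, by the number of ESC peaks taken (log scale). Error bars are exact binomial 95% intervals over peaks. The highest decile stands at 1.91% and the others at 0 to 0.544%, and the right-hand share climbs from 9.33% to 33.7%.

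ESC peaks with a primed counterpart were concentrated at the top of the ESC list. Their median score percentile was 90.8 (95% interval of the median 82.0 to 96.0), and 28 of the 55 lay in the highest decile, ranks 1 to 1469. That decile had an ESD-EpiSC peak at 1.91% of its peaks (1.27 to 2.74). The next decile had 8 such peaks (0.544%, 0.235 to 1.07), deciles 3 to 9 had 0 to 4 each, and the lowest decile had 5 (0.340%, 0.111 to 0.792). Median ESC scores were 169.92 for the 55 and 76.32 for the other 14641. The 55 were also wider, with a median of 715 bp against 499 bp, and a wide peak meets others more easily. The part of width in the concentration was not tested.

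Sharing also varied along the ESD-EpiSC list. Of the 10 highest kept ESD-EpiSC peaks 3 met an ESC peak, of the 25 highest 8 (interval 14.9 to 53.5%) and of the 100 highest 38 (38.0%, 28.5 to 48.3). In 3 parts from the top of the list, the numbers were 23 of 64 (35.9%, 24.3 to 48.9), 29 of 64 (45.3%, 32.8 to 58.3) and 13 of 65 (20.0%, 11.1 to 31.8). The lowest part shared least. Its interval overlaps that of the highest part and lies below that of the middle part. Median ESD-EpiSC scores were 66.83 for shared peaks and 59.49 for the others. Those shared peaks were spread over the whole ESC list. The best-ranked ESC counterpart was within the ESC top 100 for 15, further down to rank 1000 for 15, from there to 5000 for 19, from there to 10000 for 7 and beyond 10000 for 9.

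**Figure D2:**
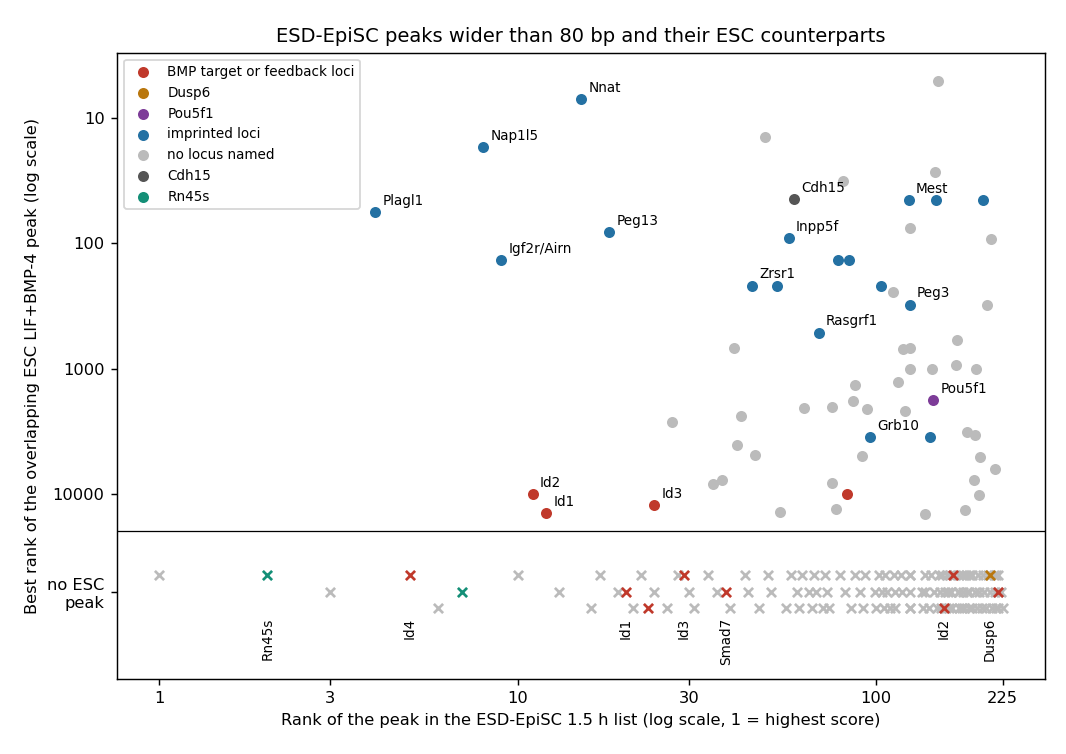
Each of the 193 ESD-EpiSC peaks by its rank in the ESD-EpiSC list (x, log scale) and the best rank of the ESC LIF+BMP-4 peak it overlaps (y, log scale, highest score at the top); crosses under the line have no ESC peak, spread over 3 rows for legibility. Colours mark named loci. Plagl1, Nap1l5 and Nnat lie high in both lists, whereas the Id1, Id2 and Id3 peaks rank 12, 11 and 24 in ESD-EpiSCs and beyond 10000 in ESCs. The Id1 peak of rank 12 lies within 50 kb but not 25 kb of Id1, and within 25 kb of Mcts2.

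The Id loci were among the highest ESD-EpiSC sites, and their ESC counterparts ranked beyond 10000 of 14696. At Id2 the ESD-EpiSC peak at chr12:25783668-25783926 had score 207.46 and rank 11, and the ESC peak over it, at chr12:25783619-25784068, had score 63.1 and rank 10027. A second ESD-EpiSC peak of rank 83 lay under the same ESC peak. At Id1 the ESD-EpiSC peak at chr2:152533313-152533580 ranked 12 (score 199.91), over an ESC peak of rank 14333 (score 50.76). This pair lay within 50 kb but not 25 kb of the recalled place of Id1. It lay within 25 kb of that of the imprinted gene Mcts2, so its tie to Id1 is uncertain. At Id3 the ESD-EpiSC peak at chr4:135696340-135696542 ranked 24 (score 142.14), over an ESC peak of rank 12355 (score 55.59). All 3 ESC counterparts thus lay in the lower part of a list of 14696, while the ESD-EpiSC peaks lay in the highest 24 of 225. In LIF+serum the Id3 site ranked 746 of 9387 and the Id2 site 3710, and the Id1 site had no peak there. At Id3 the ESC rank thus differed between the ESC libraries. A rank gives a peak's place among the calls of its own library and no amount of binding that can be compared between lists.

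Other ESD-EpiSC peaks at the Id genes had no overlapping ESC LIF+BMP-4 peak, though ESC peaks lay near. Id1 had ESD-EpiSC peaks at chr2:152560787-152561054 (rank 23) and chr2:152565128-152565351 (rank 20), 2731 bp and 7072 bp from the nearest ESC LIF+BMP-4 peak. The first of them overlapped a LIF+serum peak of rank 6344. Id3 had peaks at chr4:135703842-135704010 (rank 29), 521 bp from an ESC peak of rank 3060, and at chr4:135700629-135700729 (rank 218), 1872 bp from the nearest. The second of them overlapped a LIF+serum peak of rank 6907. Id2 had a further peak at chr12:25777889-25777982 (rank 154), 5636 bp from the nearest ESC LIF+BMP-4 peak. Id4 had 1 ESD-EpiSC peak at chr13:48323123-48323434, of rank 5 (score 361.77), and 1 ESC peak 8402 bp away, of rank 7147. At each of these genes except Id2 at least 1 ESD-EpiSC peak was also called at 24 h. At Id3 that was the shared peak of rank 24, which met a 24 h peak of rank 5 of 133. The Id3 peaks of ranks 29 and 218 met no 24 h peak. The Id4 site had rank 12 at 24 h.

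In ESCs the strongest peaks around the same genes held no ESD-EpiSC peak, though the one at Id3 lay close to one. The highest ESC peak within 50 kb of Id1, at chr2:152512275-152513098 (rank 46), lay 20214 bp from the nearest ESD-EpiSC peak. It falls at Mcts2, an imprinted gene inside H13, so its closeness to Id1 does not tie it to Id1. The next, at chr2:152552319-152553248, ranked 1217 and lay 7538 bp from the nearest ESD-EpiSC peak. Around Id2 the highest ESC peak ranked 1770 and lay 37711 bp away. Around Id3 it ranked 3060 and lay only 521 bp from an ESD-EpiSC peak. Around Id1 there were 5 ESC peaks and 3 ESD-EpiSC peaks with 1 overlap, around Id2 5 and 3 with 2 ESD-EpiSC peaks on 1 ESC peak, and around Id3 4 and 3 with 1 overlap.

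**Figure D3:**
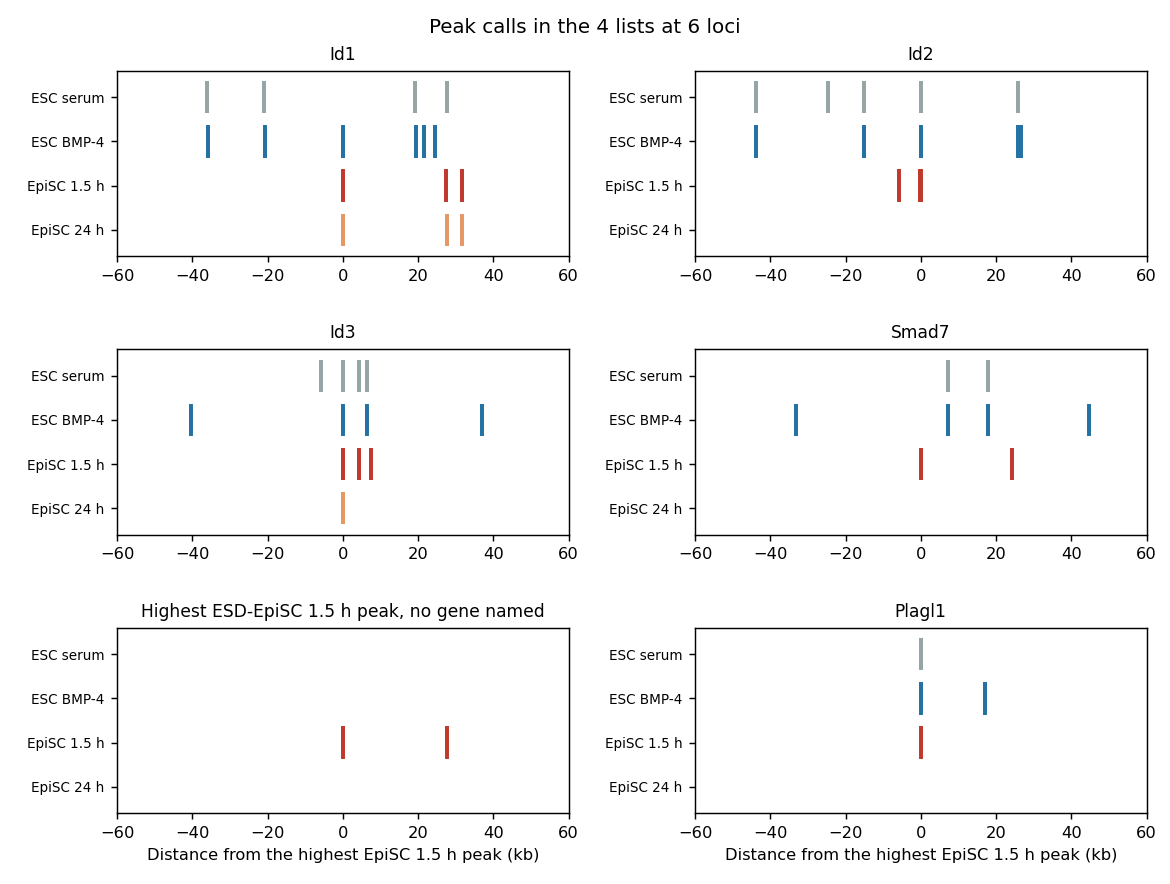
Centres of the peaks in the 4 lists within 60 kb of the highest ESD-EpiSC 1.5 h peak at Id1, Id2, Id3, Smad7, the highest ESD-EpiSC peak of all and Plagl1 (x, distance in kb; strokes mark centres and not widths; the 24 h list includes peaks of 80 bp or less). At Id1 and Smad7 most ESC strokes stand apart from the ESD-EpiSC strokes. The highest ESD-EpiSC peak stands with ESD-EpiSC 1.5 h strokes alone, and Plagl1 has 1 position common to 3 lists. The Id1 panel is centred on the peak of rank 12, within 50 kb but not 25 kb of Id1. That peak lies within 25 kb of Mcts2, so its tie to Id1 is uncertain.

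Smad7, the inhibitory SMAD, had peaks in both states at different places. ESD-EpiSCs had a peak at chr18:75502509-75502695 (rank 38, score 105.88) and one at chr18:75526681-75526779 (rank 164, score 54.57). ESCs had 3 peaks, of ranks 526, 5404 and 11905, and the nearest lay 6936 bp and 5700 bp from the ESD-EpiSC peaks. Smad6 and Bambi, which encode an inhibitory SMAD and a BMP pseudoreceptor, had ESC peaks (best ranks 6269 and 1812) and no ESD-EpiSC peak within 50 kb. The same held for Msx1 (10707) and Msx2 (3101), homeobox genes that BMP induces, and for Hes1 (5822) and Junb (218). An ESD-EpiSC list of 193 peaks leaves most ESC sites without a counterpart, as the 0.374% above shows, so a missing call at a single gene says little.

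The highest ESD-EpiSC peak of all had no ESC peak anywhere near. It lay at chr6:72166707-72167014 with score 1941.28, and the nearest ESC LIF+BMP-4 peak was 223597 bp away. A second peak near it, at chr6:72194359-72194656, ranked 19 (score 166.29). No gene is given here for either. Neither was called in LIF+serum or at 24 h. Ranks 2 and 7, at chr17:39979942-39983328 and chr17:39984373-39985775, fall on Rn45s, a copy of the ribosomal RNA precursor. They are 3387 bp and 1403 bp wide against a median of 135 bp. Ribosomal sequence is repeated in the genome, and the part of repeats in these 2 peaks was not tested.

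Several other ESD-EpiSC-only peaks ranked high at places for which no gene is given here. Rank 3 lay at chr7:77502650-77503219 (score 646.81), 31868 bp from the nearest ESC peak. Rank 6 lay at chr2:151919096-151919489 (score 338.12), 21523 bp from it. Ranks 10, 17 and 21 lay together at chr5:144015022-144015456, chr5:144016455-144016821 and chr5:144016041-144016384, with the nearest ESC peak 7872 to 9305 bp away. Rank 13 lay at chr12:85966091-85966476 (score 192.06). None of these was called in LIF+serum or at 24 h.

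Peaks without an overlap seldom lay within 1 kb of an ESC peak, though most lay within 50 kb of one. How near randomly placed peaks would lie was not computed. For the 128 ESD-EpiSC-only peaks the gap to the nearest ESC peak had a median of 30968.5 bp (quartiles 8909.75 and 117469). Only 8 (6.25%, 2.74 to 11.9) lay within 1 kb, 34 (26.6%, 19.1 to 35.1) within 10 kb and 77 (60.2%, 51.1 to 68.7) within 50 kb. As a scale, 39.3% of ESC peaks had another ESC peak within 10 kb and 71.9% within 50 kb.

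Some of the highest shared ESC peaks were recognised as lying at imprinted genes, whose expression depends on the parent of origin and is set by methylated control regions. These loci were recognised at peaks already seen, and their positions were taken from those peaks. That a peak lies at each is thus how they were chosen, and no count over them is given. In the ESC list Nnat (neuronatin) ranked 7 at chr2:157384802-157386460 and Nap1l5 ranked 17 at chr6:58856523-58857468. Their ESD-EpiSC peaks ranked 15 (score 178.08) and 8 (274.27). Plagl1, a zinc-finger gene, ranked 56 in ESCs at chr10:12810128-12811432 and 4 in ESD-EpiSCs (382.82), the highest shared peak of the primed list. Igf2r/Airn, the locus of the insulin-like growth factor 2 receptor and its antisense RNA, ranked 136 in ESCs at chr17:12934946-12935778 and 9 in ESD-EpiSCs (253.12). Peg13, a noncoding RNA, ranked 81 and 18 (168.85). These 5 are grouped here by rank, in the highest 1% of the ESC list and among the 18 highest ranks of the ESD-EpiSC list. Their high ranks thus follow from the grouping and are no result about imprinted genes.

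Further imprinted loci were shared with lower ESD-EpiSC ranks. Mest ranked 45 in ESCs, and its ESC peak of 2219 bp held 3 ESD-EpiSC peaks, the best at rank 123. Inpp5f ranked 91 and 57, Zrsr1 217 and 45, Peg3 308 and 124, Rasgrf1 516 and 69, and Grb10, a growth factor receptor adaptor, 3536 and 96 (ESC rank first). The ESC peaks at Igf2r/Airn and Zrsr1 each held 3 ESD-EpiSC peaks as well, and that at Grb10 held 2.

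Other imprinted genes had an ESC peak and no ESD-EpiSC peak within 3 kb. Kcnq1ot1, an antisense RNA at the Kcnq1 locus, ranked 43 in ESCs, Mcts2 46, H19 285, Dlk1/Meg3 681, Snrpn 950, Peg10 1115 and Impact 2662. Gnas, a further imprinted gene, was looked at and is not reported, since its position was not recalled closely enough. The loci are not a complete or an independent list of imprinted genes, and whether such genes are more often shared than others was not tested. Methylation was not measured, and its part at these places was not tested.

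The 14 shared peaks of the ESC top 193 also included one at Cdh15, a cadherin gene likewise recognised from its peak, of rank 44 in ESCs and 59 in ESD-EpiSCs. No gene is given here for others of the 14, at chr1:63246381-63247348 (75 and 124), chr10:92934051-92934693 (ESC rank 5, ESD-EpiSC rank 149), chr10:79201791-79202651 (14 and 49), chr5:143890492-143891336 (27 and 146), chr9:92830346-92831026 (32 and 81) and chr6:47974579-47975293 (93 and 209). All 14 was also called in LIF+serum.

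Most of the very highest ESC peaks had no primed counterpart. Ranks 1 to 4, at chr11:115302505-115303380 (score 2169.55), chrX:166420916-166424182 (1876.42), chr8:24013229-24014078 (1813.42) and chr7:135010920-135011795 (1580.4), met no ESD-EpiSC peak. The chromosome X peak was 3267 bp wide against a median of 500 bp. Of the 10 highest ESC peaks, those of ranks 5 and 7 were shared. All 179 unshared peaks of the ESC top 193 were called in LIF+serum as well, so they were present in a second ESC library.

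Most naive-network loci looked at had ESC peaks, as did most of the primed-state and lineage genes described below. No naive-network locus had a kept ESD-EpiSC 1.5 h peak within 50 kb. Tbx3 had 1 peak of the 24 h list there. Nanog, a core naive factor, had 11 ESC peaks within 50 kb, the best at rank 437. Tfcp2l1, a naive transcription factor downstream of LIF, had 6 with the best at rank 145. Klf5 had 8 (best 1023), Klf2 6 (8595), Tbx3 6 (3101) and Prdm14 3 (584). Socs3, a feedback target of LIF signalling, had 1 (1319), and Stat3, its mediator, had 3 (4117). Dppa3 (437, a peak that it shares with Nanog's window), Fgf4 (3702) and Zfp42 (7129) likewise had ESC peaks alone. Klf4 and Esrrb had no peak of either list within 50 kb. The same reservation holds as for the BMP targets, since an ESD-EpiSC peak is rare at any ESC site. How often such a window around any gene holds a peak of either list was not computed. These calls are thus not shown to be particular to naive genes.

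Pou5f1, which encodes the pluripotency factor OCT4 and is active in both states, was the exception among these genes. It had 9 ESC peaks within 50 kb, and the highest, at chr17:35641475-35642009 (rank 1792, score 151.17), held the ESD-EpiSC peak at chr17:35641799-35641913 (rank 144, score 57.6). Sox2 (13773) and Sall4 (31) had ESC peaks alone. Dusp6, which encodes an ERK phosphatase, had an ESD-EpiSC peak at chr10:98724495-98724592 (rank 207, score 51.08), 32137 bp from the nearest ESC peak. Spry2 and Spry4, which restrain FGF signalling, had 10 and 7 ESC peaks (best ranks 357 and 1185) and no ESD-EpiSC peak.

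The genes looked at of the primed state and of the lineages that BMP-4 can induce had no kept ESD-EpiSC peak at 1.5 h within 50 kb. Among primed-state genes, Lefty1 (628), Dnmt3b (4303), Nodal (8136), Otx2 (12477) and Fgf5 (13668) had an ESC peak, with the best rank in parentheses, and Dnmt3a had none. Among lineage genes, Gata2 (2543), Cdx2 (9630), T (10295) and Hand1 (14018) had ESC peaks. Several of these ranks lie in the lowest part of the list. Other genes of the primed state and of these lineages were not looked at, as their positions were not recalled. The reservations made for the BMP targets and the naive genes hold here too. Only 0.374% of ESC peaks held an ESD-EpiSC peak.

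The 2 lists that did not enter the comparison differed between the classes in part. They come from the same cell types as the lists that made the classes. Such differences are thus no independent support for the classes. Of the 65 shared ESD-EpiSC peaks 52 (80%, 68.2 to 88.9) also overlapped a LIF+serum peak, against 11 of the 128 others (8.59%, 4.37 to 14.9), where 32.6% of all 193 did. Of the 55 ESC peaks with an ESD-EpiSC peak 43 (78.2%, 65.0 to 88.2) were in LIF+serum, against 5640 of 14641 without (38.5%, 37.7 to 39.3) and 38.7% of all ESC LIF+BMP-4 peaks. The 55 also ranked higher in the ESC list, and the part of rank in this difference was not tested. In the 24 h list 7 of 65 shared (10.8%, 4.44 to 20.9) and 8 of 128 unshared ESD-EpiSC peaks (6.25%, 2.74 to 11.9) were called again, with overlapping intervals, beside 7.77% of all 193. Counting both ESC media, 76 of 193 ESD-EpiSC peaks (39.4%) had an ESC peak. They comprised 52 in both media, 13 in LIF+BMP-4 only and 11 in LIF+serum only. With the LIF+BMP-4 list cut to the 9387 peaks of the LIF+serum list, 56 ESD-EpiSC peaks (29.0%, 22.7 to 36.0) met it, beside 63 (32.6%, 26.1 to 39.7) for LIF+serum. Both shares are over the same 193 ESD-EpiSC peaks, so their separate intervals do not measure the difference between them, which was not tested. LIF+serum peaks were wider, with a median of 811 bp against 500 bp for all LIF+BMP-4 peaks. The part of width in these shares was not tested.

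**Figure D4:**
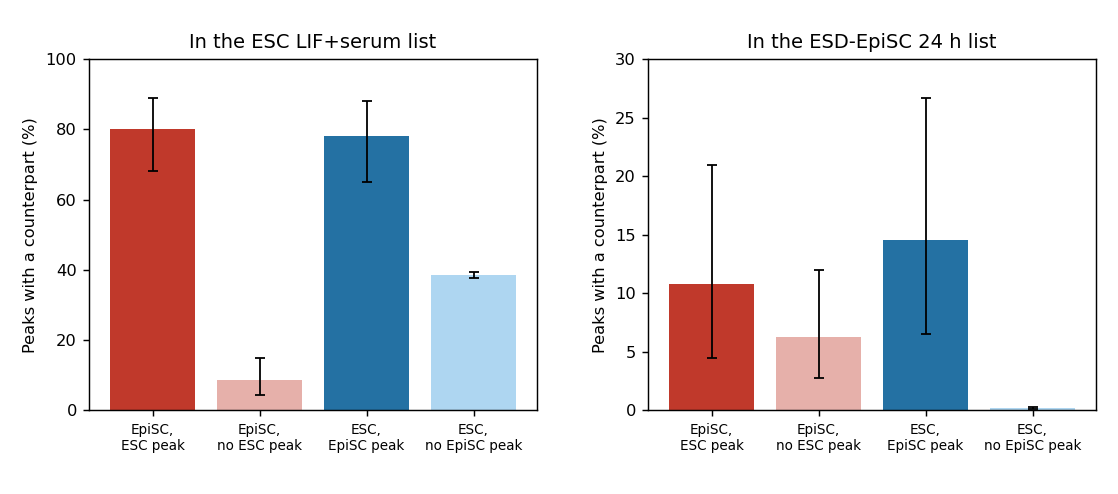
Percentage of peaks with a counterpart in the ESC LIF+serum list (left) and in the ESD-EpiSC 24 h list (right), for ESD-EpiSC 1.5 h peaks with or without an ESC LIF+BMP-4 peak and for ESC LIF+BMP-4 peaks with or without an ESD-EpiSC peak. Error bars are exact binomial 95% intervals over peaks; the right-hand axis ends at 30%. Left, 80% against 8.59% and 78.2% against 38.5%. Right, 10.8% against 6.25% and 14.5% against 0.143%. The classes were made with lists of the same cell types, so these differences are no independent support for them.

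Chromosome 8 held 29 of the 193 ESD-EpiSC peaks (15.0%) and 7.62% of the ESC peaks, and 11 of the 29 were shared. Without chromosomes 8, X and Y the share of ESD-EpiSC peaks on an ESC peak was 33.1%.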

How the data were processed

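Chromatin was pulled down with an antibody to Smad1 and sequenced, per the labels' protocols. Per the submitters' processing notes, MACS 1.4.2, Picard and Bowtie 1.1.0 were used with the mm9 build, in roles that are not stated. Read numbers, read filters and the control used for each list are not given here, so the depth is unknown and a missing peak is not missing binding. The authors deposited 1 list per library with a score for each peak, whose scale is not given. Scores served only to rank or filter peaks within a list.

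Overlaps, gaps and ranks were computed with scipy 1.17.1, pandas 2.3.3 and numpy 2.4.6 under Python 3.11.15, and plotted with matplotlib 3.10.9. Tied scores share the better rank. Shares carry exact (Clopper-Pearson) 95% intervals, and medians carry order-statistic intervals. The overlap and gap code was tested on simulated data. The positions named are the highest-scoring peaks of each class and peaks near listed genes whose mm9 position was recalled. Some positions were recalled together with GRCm38 positions, and all were compared with GRCm38 gene starts, so they are not independent of that build. Those of Stat3, Sall4 and Prdm14 moved by 10 kb or more before the list was used. Names that rested on a shift between builds were removed, so the peaks concerned carry no gene. Imprinted loci, Cdh15, Rn45s, the motif TGCCGC and the promoters printed were chosen after their values were seen. Cdh15 was first grouped with the imprinted loci and then taken out. The members and lists were chosen with earlier results of these data known. Without an mm9 annotation or genome, no count over the gene lists and no motif search in peaks was made.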

Additional observations from a re-analysis of the deposited data

How the results depend on the processing

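No paired analysis was possible because no condition has a replicate library. The share of ESD-EpiSC peaks on an ESC peak (33.7%) moved past its interval to 42.0% with peaks wider than 120 bp, to 22.0% with scores of at least 100 in both lists and to 24.9% with that limit on the ESC list alone. It fell to 9.33%, 15.5% and 25.4% with the ESC list cut to its top 193, 1000 and 5000 peaks. The number of ESC peaks with an ESD-EpiSC peak (55) became 14 with the top 193 ESC peaks, 24 with the top 1000 and, with scores of at least 100, 9 (both lists) or 14 (ESD-EpiSC list alone). These settings use fewer peaks. The other 24 planned and all 22 added recalculations stayed within their limits (the 95% interval, or 1.5 times for counts), among them overlap of 50% of the shorter peak, extension by 1 kb and no width limit. Within 25 kb in place of 50 kb, Cdx2, Gata2, Otx2, Smad6 and Sox2 lost their ESC peaks, Dusp6 kept its ESD-EpiSC peak alone and Id4 its ESC peak alone; within 100 kb, Dnmt3a, Esrrb and Klf4 gained an ESC peak. Id1 within 25 kb kept 2 ESD-EpiSC peaks, none of them shared, and its best ESC rank became 1217 in place of 46. Counts over the gene lists under other windows and the motif content of peaks were not run.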
